A study of Mus musculus with 6 samples.

Results

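The fibroblast growth factor (FGF) receptors and the genes that restrain or read out FGF signaling were examined in RNA-seq libraries of the mouse molar. Members were taken by gene symbol and comprised 5 receptor genes (*Fgfr1*, *Fgfr2*, *Fgfr3*, *Fgfr4* and *Fgfrl1*) and 5 feedback genes (*Spry1*, *Spry2*, *Spry4*, *Dusp6* and *Etv5*), 10 of the 27506 genes in the deposited count table. All 10 were counted in every library and passed edgeR's filter on low counts, which left 19330 genes for testing. Pulp was collected from mandibular first molars of C57BL/6 mice 3.5 days after birth (P3.5), when the tooth root begins to form. The 3 control libraries came from animals labelled *Ror2fl/fl*, and the 3 mutant libraries came from *Osr2-Cre;Ror2fl/fl* animals, so both groups carried floxed *Ror2* alleles. The sample names carry letter codes that are not explained, and that of control library 1 differs from those of control libraries 2 and 3. By the study's lineage tracing, *Osr2-Cre* acts in dental mesenchyme and alveolar bone and not in dental epithelium, so it removes the Wnt receptor gene *Ror2* from part of the tooth. Whether a library stands for 1 animal or a pool was not stated, so p-values measure only the spread between these libraries.

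FGF ligands bind receptor tyrosine kinases together with heparan sulfate chains on the cell surface, and the bound receptor switches on the Ras-ERK kinase cascade. The cascade induces its own brakes: the Sprouty proteins act upstream of ERK, and the phosphatase *Dusp6* removes phosphate from ERK itself. The ETS transcription factor *Etv5* is a common transcriptional target of the same cascade. In teeth, FGF signals pass between dental epithelium and dental mesenchyme from the earliest stages, and *Fgfr3* is best known as a restraint on growth of cartilage in the long bones.

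The libraries held 56134770 to 62628940 estimated counts, and *Ror2* was at 26.3 to 28.1 CPM in mutant against 36.2 to 38.2 CPM in control libraries. CPM are counts scaled to a common library size with edgeR's TMM method. Transcripts of the enamel-forming epithelium were abundant in these libraries of labelled dental pulp. The 13 dental epithelium markers summed to between 172166 and 192555 CPM in control and between 185578 and 255886 CPM in mutant libraries, among them the enamel matrix gene *Amelx* (94466 ± 5376 and 139642 ± 19159 CPM, SD, n = 3 each; edgeR adjusted p = 0.085). Of the 13, 1 passed the test, against 20.2% of all genes tested. This was the enamel organ gene *Odam*, which fell from 204 ± 6.87 to 139 ± 11.1 CPM (edgeR adjusted p = 0.012). The enamel matrix gene *Ambn* was at 64773 ± 3896 CPM in control and 60042 ± 13294 CPM in mutant libraries, and *Enam* at 19867 ± 1467 against 14297 ± 3791 CPM. The 10 dental mesenchyme markers summed to between 1156 and 1453 CPM in control and between 1144 and 1398 CPM in mutant libraries. Of these 10, 2 passed the test, both higher in mutant libraries, against 10.4% of all genes tested. Cartilage markers were lower in mutant libraries, with 53.7 to 70.5 against 19.9 to 33.8 CPM in sum. Most of that sum came from *Hapln1* (45.1 ± 5.89 CPM in control and 17.1 ± 6.25 CPM in mutant libraries). Skeletal muscle markers were also lower, and summed to between 11.7 and 38.4 CPM in control and between 3.44 and 4.78 CPM in mutant libraries. In bulk tissue, fewer cells of a type and less RNA per cell cannot be told apart.

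*Fgfr3* fell in mutant molars, *Dusp6* fell by a smaller margin and *Fgfr2* rose, while the other 7 genes did not pass the test. In all, 3 of the 10 genes passed at an adjusted p-value below 0.05 (quasi-likelihood test of edgeR, adjusted by Benjamini-Hochberg over the whole table), against 20.2% of all genes tested. Of these, 1 was higher and 2 were lower in mutant libraries, against 10.4% and 9.84% of all genes tested. Without adjustment, 4 of the 10 had a p-value below 0.05, against 38.3% of all genes tested. Control and mutant libraries did not overlap for 4 of the 10 genes (44.7% of all genes tested, 22.6% higher and 22.1% lower): *Fgfr2* and *Spry1* were higher in every mutant library and *Fgfr3* and *Dusp6* were lower. The median log2 fold change over the 10 genes was 0.08, and over all genes tested it was 0.01. With 3 libraries a group, the smallest p-value that exact permutation allows is 0.1, which *Fgfr2*, *Fgfr3*, *Spry1* and *Dusp6* reached.

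**Figure D1:**
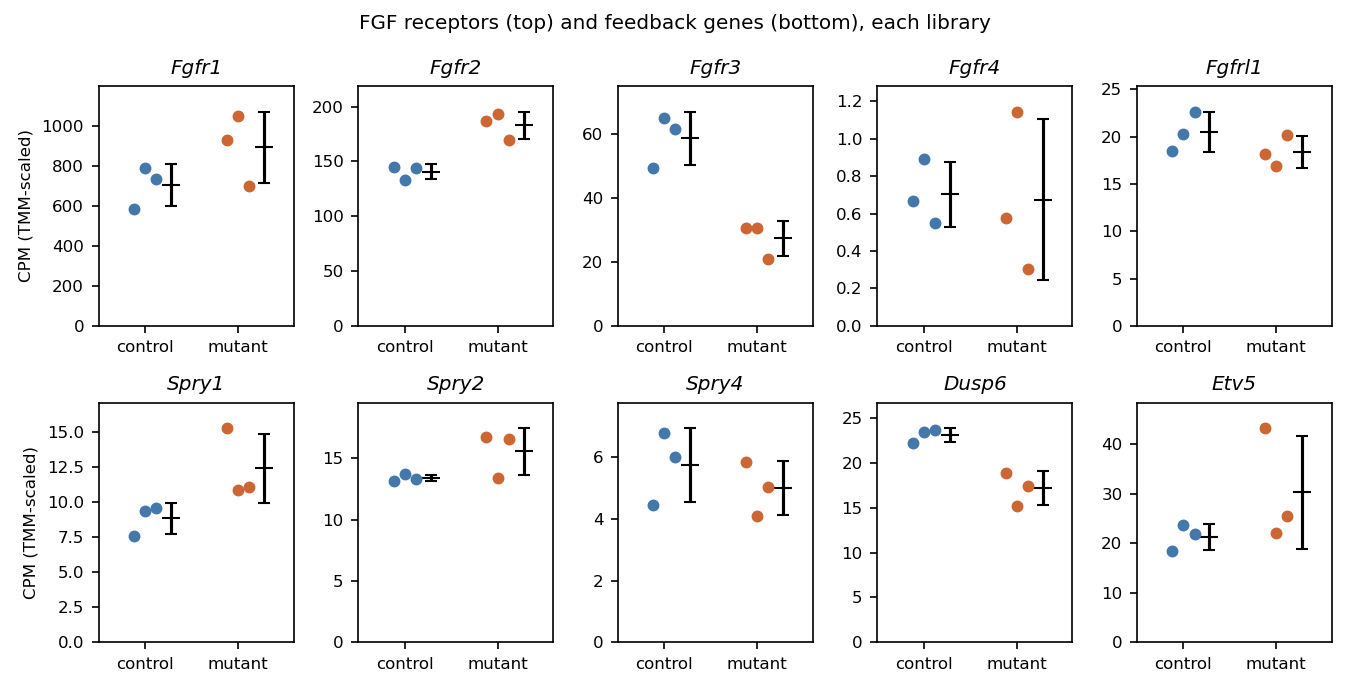
Level of each gene in CPM (vertical axes, each starting at 0) in the 3 control (blue) and 3 mutant (orange) libraries, receptors above and feedback genes below, with black bars for mean and SD. The *Fgfr3* points of the groups are far apart (49.2 to 65.0 against 21 to 30.6 CPM), whereas the points of *Fgfr1*, *Fgfr4*, *Fgfrl1*, *Spry2*, *Spry4* and *Etv5* overlap.

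Sequences upstream of the 3 genes that passed the test are shown so that their starts can be compared. RefSeq promoter windows of the GRCm38.p6 build were found for 8 of the 10 genes (10 windows). The 250 bases before each start were searched on both strands for an ETS motif (CCGGAA), an AP-1 site (TGACTCA) and a GC box (GGGCGG). Capitals mark GC boxes, which read CCGCCC on the opposite strand. The window of the first *Fgfr3* start is cut to the 200 bases before its first annotated exon, and the second *Fgfr3* start lies downstream of the first.
*Fgfr3*, first start, chr5:33721474-33721673, plus strand: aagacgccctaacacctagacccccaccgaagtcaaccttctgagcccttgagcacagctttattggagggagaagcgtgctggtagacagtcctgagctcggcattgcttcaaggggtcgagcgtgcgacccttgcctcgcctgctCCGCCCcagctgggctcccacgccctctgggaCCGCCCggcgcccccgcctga
*Fgfr3*, second start, chr5:33722056-33722305, plus strand: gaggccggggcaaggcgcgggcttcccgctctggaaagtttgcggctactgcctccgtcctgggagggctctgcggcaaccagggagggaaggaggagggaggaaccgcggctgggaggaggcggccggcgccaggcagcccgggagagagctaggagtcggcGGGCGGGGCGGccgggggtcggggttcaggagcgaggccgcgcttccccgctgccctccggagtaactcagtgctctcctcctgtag
*Dusp6*, chr10:99262981-99263230, plus strand: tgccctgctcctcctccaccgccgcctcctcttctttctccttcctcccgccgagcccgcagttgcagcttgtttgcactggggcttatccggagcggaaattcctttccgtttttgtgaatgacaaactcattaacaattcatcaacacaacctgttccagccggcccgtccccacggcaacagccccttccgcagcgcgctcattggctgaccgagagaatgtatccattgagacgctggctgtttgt
*Fgfr2*, chr7:130266809-130267058, minus strand: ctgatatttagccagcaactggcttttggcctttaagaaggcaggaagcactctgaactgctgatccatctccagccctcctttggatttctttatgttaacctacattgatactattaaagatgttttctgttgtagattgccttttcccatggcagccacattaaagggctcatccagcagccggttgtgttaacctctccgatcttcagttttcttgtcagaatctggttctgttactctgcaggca
The first *Fgfr3* window held 3 GC boxes in its 250 bases, 2 of them in the stretch shown, and the second held 2 that overlap each other. Neither the *Dusp6* nor the *Fgfr2* window held any of the 3 motifs as spelled above, and shorter or variant forms were not searched for. Among the 10 windows, 6 held a GC box, 2 held the ETS motif (those of *Fgfr4* and *Fgfrl1*) and 0 held an AP-1 site. In the 32851 windows of all genes, 32.7% held a GC box, 12% the ETS motif and 4.46% an AP-1 site. The *Fgfr2* window was 44% G and C, the *Dusp6* window 56.4%, and the *Fgfr3* windows 66.8% and 72.8%. A match of letters is a description of the sequence and not a measured binding site.

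*Fgfr3* (ENSMUSG00000054252.18; chr5:33721674-33737068 in mm10, plus strand) encodes the FGF receptor whose upstream windows are printed above. It had 49.2, 65.0 and 61.5 CPM in control libraries, against 30.6, 30.5 and 21 CPM in mutant libraries. Every mutant library lay below the lowest control library. The mean fell by 53.3%, from 58.6 ± 8.33 to 27.4 ± 5.53 CPM (SD, n = 3 each), for a log2 fold change of -1.10 with a 95% interval from -1.49 to -0.71 (standard error, SE, 0.17, edgeR adjusted p = 0.0057). Among the 19330 genes tested, 688 (3.56%) had a log2 fold change as low as that of *Fgfr3* or lower. The call held in all 21 alternative analyses, with log2 fold changes from -1.29 to -0.94. A transcript annotated on the opposite strand, *G630022F23Rik*, shares 9.96% of the 75-base stretches of *Fgfr3*, but it held 0.172 ± 0.0289 CPM in control and 0.240 ± 0.114 CPM in mutant libraries.

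Markers of cartilage, where *Fgfr3* is known to be active, were also lower in the mutant libraries. Of the 8 cartilage markers, 7 were in the table and 5 were tested. All 5 passed the test as lower in mutant libraries, against 9.84% of all genes tested. *Hapln1*, a linker of the cartilage matrix, fell from 45.1 ± 5.89 to 17.1 ± 6.25 CPM, and *Col2a1*, the main collagen of cartilage, fell from 12.3 ± 2.38 to 7.24 ± 1.14 CPM (edgeR adjusted p = 0.0081 and 0.022). *Acan*, the large aggregating proteoglycan, was at 2.17 ± 0.222 CPM in control and 0.558 ± 0.211 CPM in mutant libraries, and *Matn1* had at most 1 count in any library. Of the 8 muscle markers tested, 7 fell, against 9.84% of all genes tested. Among them, *Acta1* went from 9.16 ± 3.81 to 1.33 ± 0.0645 CPM. Among the Schwann cell markers, whose sum was 116 to 125 CPM in control and 80.3 to 95.3 CPM in mutant libraries, *Pmp22* fell. What part cartilage, muscle or Schwann cell RNA had in the difference in *Fgfr3* was not tested.

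The genes most like *Fgfr3* over the 6 libraries, by Pearson's r of log2 CPM, were *Rab39b* (r = 0.997), *Lingo1* (r = 0.997) and *Clec11a* (r = 0.996). The 6 points fall into 2 groups of 3, so a high r reflects the gap between groups as well as the order within them. *Clec11a*, a secreted growth factor for bone-forming cells, had 58.0, 74.7 and 72.5 CPM in control libraries, against 39.3, 34.8 and 26.7 CPM in mutant libraries. *Lingo1*, a transmembrane protein studied in neurons, was at 3.48, 4.37 and 3.95 CPM in control libraries, against 2.27, 2.25 and 1.76 CPM in mutant libraries. As in *Fgfr3*, mutant library 3 was the lowest in *Rab39b*, *Lingo1* and *Clec11a*, which is likely for genes picked by their correlation over the same libraries.

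*Fgfr2* (ENSMUSG00000030849.18; chr7:130162451-133123350 in mm10, minus strand) encodes a receptor whose isoforms are divided between epithelium and mesenchyme. Control libraries had 145, 133 and 144 CPM and mutant libraries 187, 193 and 169 CPM, with no overlap. The mean rose from 141 ± 6.92 to 183 ± 12.2 CPM, for a log2 fold change of 0.38 with a 95% interval from 0.15 to 0.61 (SE 0.10, edgeR adjusted p = 0.035). The direction held in all 21 alternatives, but the call was lost in 10 of them, with adjusted p-values from edgeR of up to 0.17. Among these were scaling by library size alone (adjusted p = 0.074), testing without a filter on low counts (0.056) and leaving out control library 2 (0.17). The annotated span reaches the neighboring gene *Ctbp2*, which shares 2.19% of the 75-base stretches of *Fgfr2* on the same strand. *Ctbp2* was at 22.6 ± 0.154 CPM in control and 20.3 ± 0.291 CPM in mutant libraries, and the summed counts of both genes gave a log2 change of 0.32 (edgeR adjusted p = 0.056). The dental epithelium marker sums given above overlapped between the groups, and single markers lay on both sides, *Amelx* higher and *Enam*, *Trp63* and *Odam* lower in every mutant library. Their part in the difference in *Fgfr2* was not tested.

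*Fgfr1* (ENSMUSG00000031565.18; chr8:25513654-25575718 in mm10, plus strand) encodes a receptor of both dental tissues. It had 586, 788 and 734 CPM in control libraries, against 930, 1048 and 699 CPM in mutant libraries. The groups overlapped because mutant library 3 lay below control libraries 2 and 3. The means were 703 ± 105 and 893 ± 177 CPM, and the log2 fold change was 0.35 with a 95% interval from -0.07 to 0.77 (SE 0.18, edgeR adjusted p = 0.20).

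The values of *Fgfr4* and *Fgfrl1* overlapped between the groups. *Fgfr4* (ENSMUSG00000005320.9; chr13:55152640-55168759), a receptor expressed in developing muscle, had 43, 52 and 34 counts in control and 34, 66 and 18 counts in mutant libraries. The interval of its log2 fold change ran from -1.13 to 1.01 around a value of -0.06 (edgeR adjusted p = 0.94), and its biological coefficient of variation was 39.4%. Its sign turned when control library 2, mutant library 1 or mutant library 3 was left out (0.14, 0.04 and 0.28). The part of the lower muscle marker sums in *Fgfr4* was not tested. *Fgfrl1* (ENSMUSG00000008090.14; chr5:108692382-108706924) encodes a receptor-like protein that binds FGFs and lacks the kinase domain. It had 18.4, 20.3 and 22.6 CPM in control libraries, against 18.1, 16.9 and 20.1 CPM in mutant libraries, for a log2 fold change of -0.15 with a 95% interval from -0.43 to 0.12 (edgeR adjusted p = 0.37).

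**Figure D2:**
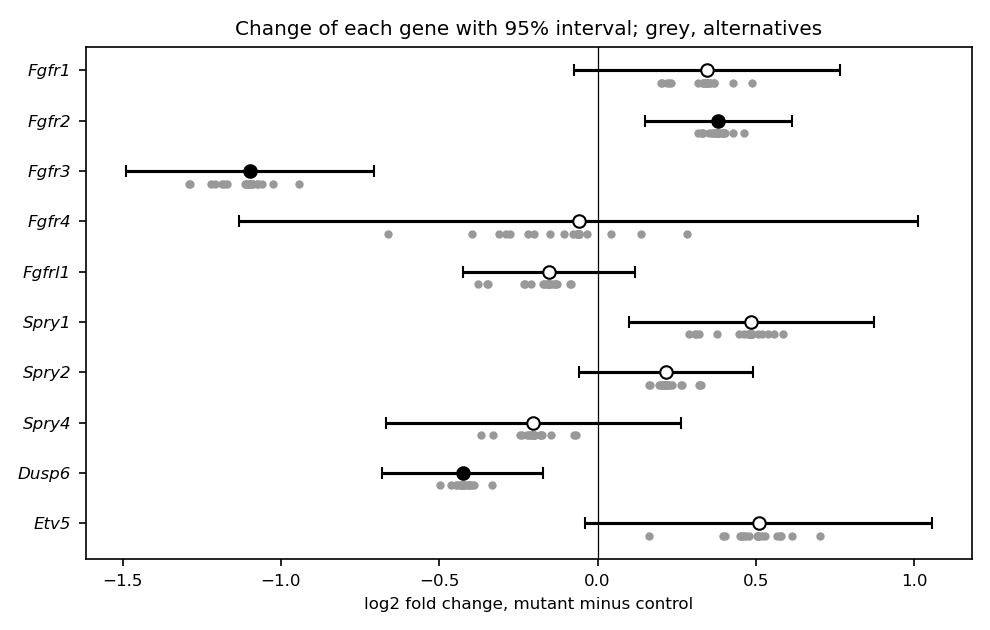
Log2 fold change of each gene, mutant minus control (horizontal axis), with its 95% interval (black) and the values of the alternative analyses (grey points), where filled circles mark an adjusted p-value under 0.05. *Fgfr3* lies at -1.10 with every alternative between -1.29 and -0.94, and the *Fgfr4* interval from -1.13 to 1.01 is the widest of the 10.

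Levels of different genes were compared per kilobase of exon. In control libraries *Fgfr1* stood highest at 71.2 CPM per kb, followed by *Fgfr2* (13.6 CPM per kb), *Fgfr3* (8.18 CPM per kb), *Dusp6* (7.36 CPM per kb) and *Fgfrl1* (7.35 CPM per kb). Below them came *Spry2* (6.42 CPM per kb), *Etv5* (5.19 CPM per kb), *Spry1* (3.04 CPM per kb), *Spry4* (1.21 CPM per kb) and *Fgfr4* (0.199 CPM per kb). Neighbors in this order overlapped in 2 of 9 pairs, *Fgfr3* with *Dusp6* and *Dusp6* with *Fgfrl1*. In mutant libraries the order was *Fgfr1* (90.4 CPM per kb), *Fgfr2* (17.7 CPM per kb), *Spry2* (7.46 CPM per kb), *Etv5* (7.38 CPM per kb) and *Fgfrl1* (6.61 CPM per kb), then *Dusp6* (5.48 CPM per kb), *Spry1* (4.26 CPM per kb), *Fgfr3* (3.82 CPM per kb), *Spry4* (1.05 CPM per kb) and *Fgfr4* (0.190 CPM per kb). *Fgfr3* thus stood at place 3 in control and place 8 in mutant libraries, also per kilobase of coding sequence, although its mutant libraries overlapped those of *Spry1*. The other overlapping neighbors in mutant libraries were *Spry2* with *Etv5*, *Etv5* with *Fgfrl1*, and *Dusp6* with *Spry1*.

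The makeup of the kinase receptors was described by the share of each in the sum of *Fgfr1* to *Fgfr4* per exon kilobase, a measure chosen after the values were seen and not tested. *Fgfr1* made up 76.2 ± 2.27% of the sum in control and 80.4 ± 1.79% in mutant libraries, and *Fgfr2* made up 14.8 ± 2.46% and 16 ± 1.93%. *Fgfr3* made up 8.77 ± 0.202% in control and 3.40 ± 0.230% in mutant libraries. Set against *Fgfr1* in the same library, *Fgfr3* was at 11.6%, 11.4% and 11.6% in control and at 4.54%, 4.01% and 4.14% in mutant libraries. The sum itself was 93.2 ± 11.3 CPM per kb in control and 112 ± 19.99 CPM per kb in mutant libraries.

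**Figure D3:**
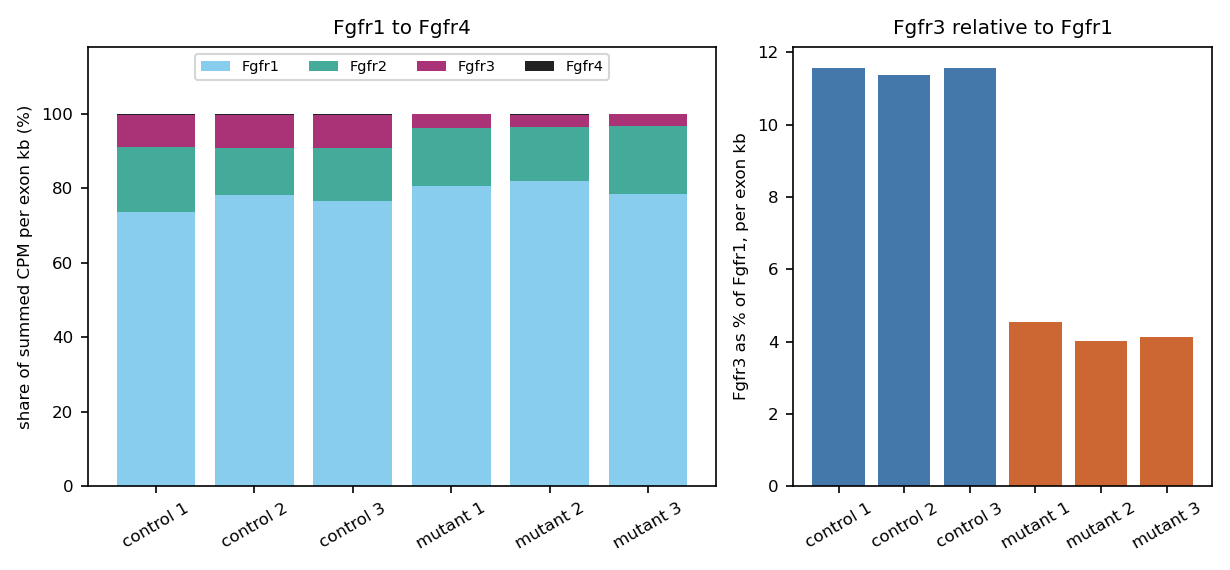
Left, share of *Fgfr1*, *Fgfr2*, *Fgfr3* and *Fgfr4* in their summed CPM per exon kilobase in each library (vertical axis, percent); right, *Fgfr3* as a percentage of *Fgfr1* in each control (blue) and mutant (orange) library. *Fgfr3* was 11.4% to 11.6% of *Fgfr1* in control and 4.01% to 4.54% in mutant libraries.

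*Dusp6* (ENSMUSG00000019960.8; chr10:99263231-99267489 in mm10, plus strand), the ERK phosphatase, was the feedback gene that passed the test. It had 22.1, 23.4 and 23.6 CPM in control libraries, against 18.9, 15.1 and 17.5 CPM in mutant libraries. All 3 mutant libraries lay below all 3 control libraries. The mean fell by 25.6%, from 23.1 ± 0.793 to 17.2 ± 1.88 CPM, for a log2 fold change of -0.43 with a 95% interval from -0.68 to -0.17 (SE 0.11, edgeR adjusted p = 0.033). The direction held in all 21 alternatives and the call in 16 of them. It was lost without control library 1, 2 or 3 (edgeR adjusted p = 0.059, 0.13 and 0.14) and in 2 further alternatives. It held without mutant library 1, 2 or 3 (edgeR adjusted p = 0.040, 0.043 and 0.043), where as many libraries entered the test.

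The Sprouty genes, which encode inhibitors of signaling from receptor tyrosine kinases, did not pass the test. *Spry1* (ENSMUSG00000037211.12; chr3:37639947-37644598, plus strand) had 7.57, 9.36 and 9.61 CPM in control libraries, against 15.3, 10.8 and 11.1 CPM in mutant libraries. Each mutant library was higher than each control library, but the log2 fold change of 0.49 did not pass the test (95% interval 0.10 to 0.87, SE 0.17, edgeR adjusted p = 0.074). Mutant library 1 was the highest, and without it the log2 fold change was 0.31. *Spry1* shares 20.1% of its 75-base stretches with *Gm42922* on the opposite strand, which held 1.5% to 3.87% of the summed CPM of both.

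*Spry2* (ENSMUSG00000022114.5; chr14:105891947-105896819, minus strand) had 13.2, 13.7 and 13.3 CPM in control libraries, against 16.7, 13.4 and 16.6 CPM in mutant libraries. Mutant library 2 lay within the control range and the other two above it. The log2 fold change was 0.22 with a 95% interval from -0.06 to 0.49 (edgeR adjusted p = 0.22), and without mutant library 2 it was 0.32 (edgeR adjusted p = 0.046). *Spry4* (chromosome 18) had 4.44, 6.78 and 5.99 CPM in control libraries, against 5.83, 4.09 and 5.02 CPM in mutant libraries. The *Spry4* groups overlapped, with a log2 fold change of -0.20 and a 95% interval from -0.67 to 0.26 (edgeR adjusted p = 0.49).

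*Etv5* (ENSMUSG00000013089.15; chr16:22381309-22439719 in mm10, minus strand) had 18.4, 23.6 and 21.9 CPM in control libraries, against 43.2, 22.1 and 25.6 CPM in mutant libraries. Mutant library 1 stood apart, and mutant library 2 lay within the control range. The log2 fold change was 0.51 with a 95% interval from -0.04 to 1.06 (SE 0.24, edgeR adjusted p = 0.15), and without mutant library 1 it was 0.16. *Etv5* shares 18.7% of its 75-base stretches with *Gm4798* in the same orientation, and reads may have been split between the pair. *Gm4798* itself was highest in mutant library 1, at 7.67 CPM, and the summed counts gave a log2 change of 0.57 (edgeR adjusted p = 0.12).

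Genes around the receptors were read in lists by role. Of 10 other feedback and target genes tested, 2 rose, 1 fell and 7 did not pass (all genes tested: 10.4% higher, 9.84% lower), with a median log2 fold change of 0.00. *Spred1*, a Sprouty-related inhibitor of Ras signaling, had 94.5, 109 and 111 CPM in control libraries, against 78.4, 57.3 and 70.5 CPM in mutant libraries, and it decreased by 0.61 in log2 units (edgeR adjusted p = 0.019). Under an offset for GC content the difference was -0.36 (edgeR adjusted p = 0.072). *Etv4*, a close relative of *Etv5*, rose from 4.2 ± 1.21 to 9.33 ± 2.91 CPM, for a log2 fold change of 1.15 (edgeR adjusted p = 0.027). All 3 mutant libraries were above the highest control library in *Etv4* (5.98 to 11.3 against 3.48 to 5.59 CPM). *Dusp5*, another phosphatase of ERK, was at 2.93 ± 0.0282 CPM in control and 4.29 ± 0.474 CPM in mutant libraries (edgeR adjusted p = 0.042), and it lost its call in 11 of 20 alternatives. It shares 19.7% of its 75-base stretches with the antisense gene AC137853.2.

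In the adaptors and the Ras-ERK cascade, 1 of 20 genes rose, 1 fell and 18 did not pass, set against 20.2% of all genes tested that passed in either direction, with a median log2 fold change of -0.09. The 2 that passed encode the paired kinases that phosphorylate ERK. *Map2k1* (MEK1) had 49.7, 46.6 and 46.5 CPM in control libraries, against 32.9, 26.3 and 36.3 CPM in mutant libraries, for a log2 fold change of -0.58 (SE 0.13, edgeR adjusted p = 0.018). *Map2k2* (MEK2) had 85.3, 76.9 and 77.0 CPM in control libraries, against 108, 109 and 108 CPM in mutant libraries, for a log2 fold change of 0.44 (SE 0.09, edgeR adjusted p = 0.015). The paired kinases thus moved in opposite directions, each with no overlap between groups. After correction for GC content, *Map2k2* was at 0.25 (edgeR adjusted p = 0.090).

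Co-receptors and binding partners had a median log2 fold change of -0.16, with 1 of 14 tested genes higher, 2 lower and 11 not past the test, where 20.2% of all genes passed. *Gpc6*, a glypican that carries heparan sulfate, fell from 33.3 ± 6.41 to 16.2 ± 4.71 CPM, for a log2 fold change of -1.04 (SE 0.22, edgeR adjusted p = 0.018). *Flrt3*, a membrane protein that interacts with FGF receptors, fell from 35.6 ± 7.47 to 20.3 ± 4.80 CPM (log2 fold change -0.81, edgeR adjusted p = 0.031), and it lost its call in 8 of 20 alternatives. *Gpc2*, another glypican, was at 26.6 ± 3.43 CPM in control and 44.2 ± 10.5 CPM in mutant libraries (edgeR adjusted p = 0.025). *Gpc2* shares 46.8% of its 75-base stretches with the overlapping same-strand gene *Gm43720*, so its count is uncertain.

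Among the enzymes that build and trim heparan sulfate, 3 of 12 fell and 9 did not pass (9.84% of all genes tested fell), with a median log2 fold change of -0.15. *Sulf1*, which removes 6-O-sulfate groups from heparan sulfate outside the cell, had 201, 236 and 225 CPM in control libraries, against 131, 109 and 158 CPM in mutant libraries. Its mean fell from 221 ± 17.9 to 132 ± 24.5 CPM, for a log2 fold change of -0.74 (SE 0.15, edgeR adjusted p = 0.015). The sulfotransferases *Hs2st1* and *Hs6st2* decreased by 0.42 and 0.58 in log2 units (edgeR adjusted p = 0.035 and 0.036), and each lost its call in 8 of 20 alternatives. *Sulf2*, which acts like *Sulf1*, was at 87.0 CPM in control and 71.8 CPM in mutant libraries (edgeR adjusted p = 0.35).

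Of 18 secreted FGF ligands listed, 16 were in the table and 12 were tested, of which 1 fell and 11 did not pass (9.84% of all genes tested fell), with a median log2 fold change of 0.05. *Fgf1*, a ligand of all FGF receptors, was at 49.5 CPM in control and 60.5 CPM in mutant libraries (edgeR adjusted p = 0.078). *Fgf2* had 4.89, 7.44 and 7.4 CPM in control libraries, against 4.23, 3.97 and 3.56 CPM in mutant libraries, and it decreased by 0.75 in log2 units (edgeR adjusted p = 0.032). The call was lost in 9 of 20 alternatives, and *Fgf2* shares 7.33% of its 75-base stretches with *Nudt6* on the opposite strand. The tooth mesenchyme ligands *Fgf3* and *Fgf10* were at 2.91 and 2.93 CPM in control and at 1.85 and 1.83 CPM in mutant libraries (edgeR adjusted p = 0.087 and 0.064). Every one of the 12 genes of these lists that passed the test lost its call when control library 2 or control library 3 was left out, with adjusted p-values from edgeR of 0.067 to 0.16. In those analyses 910 and 872 genes of the whole table passed in place of 3906.

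The remaining marker lists overlapped between the groups in their sums. All 6 red blood cell markers had a negative log2 fold change, and 2 of them passed the test. Of the 6 macrophage markers 1 rose and 1 fell, and no odontoblast or endothelial marker passed (all genes tested: 10.4% higher, 9.84% lower). Odontoblast markers summed to between 3770 and 9731 CPM in control and between 3441 and 7866 CPM in mutant libraries, endothelial markers to between 172 and 229 and between 155 and 207 CPM. Macrophage markers summed to between 89.8 and 111 CPM in control and between 86.3 and 130 CPM in mutant libraries, and red blood cell markers to between 782 and 1320 and between 243 and 933 CPM. Their part in the differences of the 10 genes was not tested.

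**Figure D4:**
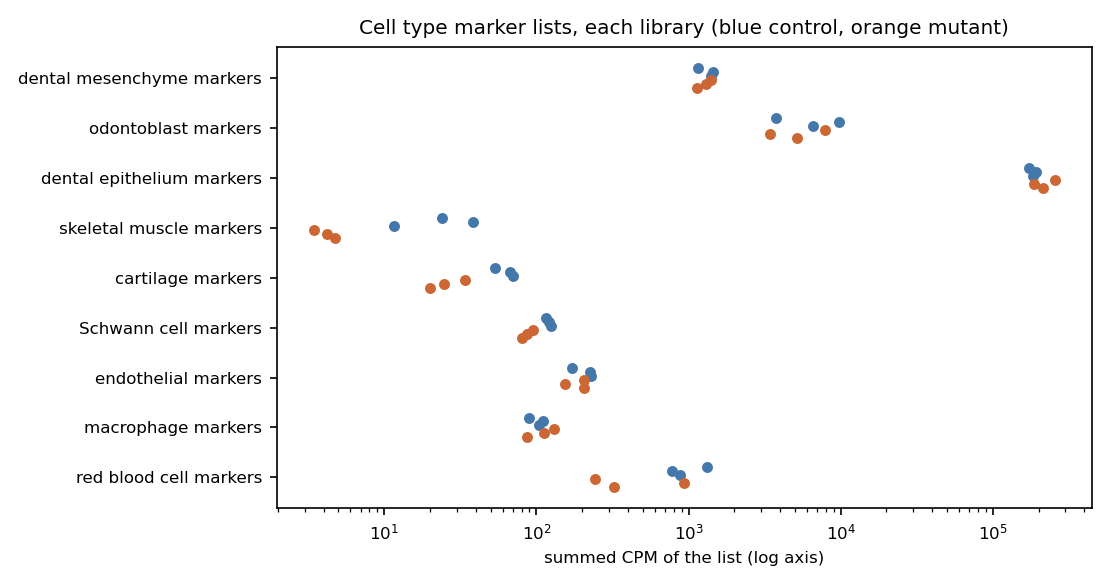
Summed CPM of each cell type marker list (horizontal axis, log scale) in the 3 control (blue) and 3 mutant (orange) libraries. Cartilage and skeletal muscle sums are lower in all 3 mutant than in all 3 control libraries, and the dental epithelium sums of the groups overlap.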

How the data were processed

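The authors deposited estimated counts per gene for 6 libraries of dental pulp at P3.5, made from single-end reads of 75 cycles aligned to mm10. The paper's methods name TopHat 2, whereas the submitters' processing notes name STAR 2.6.1d and Partek. The counting program, the use of strand, the handling of reads that fit several genes and the annotation are not given in the sources used here. Without strand, reads from a gene and its antisense partner cannot be told apart. A normalized table deposited by the authors holds a signal (the estimated count plus 1, scaled by 1 factor per library, as found by comparison with the counts) and was used only as an alternative. Columns of per-sample values matching no label here (6) were not used.

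Groups came from the genotype labels. Counts were rounded, scaled with TMM and tested with the quasi-likelihood test of edgeR 4.0.16 in R 4.3.3 (filterByExpr, Benjamini-Hochberg adjustment over 19330 genes, threshold 0.05, two-sided). The scripts were tested on simulated data. The biological coefficient of variation was 18.7%, and chi-square values of at least 56.2 per gene between libraries of the same group exceeded sampling noise. Genes were matched to GENCODE M21 (27458 of 27506) for coordinates and exon lengths. Genes sharing at least 20 stretches of 75 bases with a named gene were recorded. The 10 genes and the lists were chosen with earlier results of these data known. Named in the text were all 10 genes, the 3 genes with the smallest p-value among those that passed in each list, genes sharing sequence with the 10, the 3 genes most correlated with *Fgfr3*, *Ror2*, and marker genes at the highest CPM. Other ligands, *Sulf2*, the remaining marker genes and single-library remarks were added after their values were seen.

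Alternatives were DESeq2 1.42.0, edgeR's likelihood ratio test, limma 3.58.1 (voom with sample quality weights, and limma-trend with pseudocounts of 1 or 0.1 on the authors' normalized table), library sizes alone or size factors from DESeq2, different filters, unrounded counts, offsets for GC content and length, a block for the sample index, summed counts of genes sharing sequence, and leaving out each library. The index numbers in the labels are shared by both groups, but deviations of same-numbered libraries correlated at -0.10, -0.08 and -0.00375, so the numbers were not taken to pair the libraries. The paper's methods speak of pairs of samples and do not say which libraries would belong together. Nor do they say whether control and mutant libraries were prepared together. A difference in handling between the groups could not be told apart from genotype. Spry3, Fgf4, Fgf15 and Snorc were not analysed here, and a marker gene is not reported here.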

Additional observations from a re-analysis of the deposited data

How the results depend on the processing

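*Fgfr3* kept its direction and its call in all 21 alternatives (log2 fold change -1.29 to -0.94, adjusted p from 1.5e-07 to 0.029). Over the 10 genes, the 12 pathway genes that passed and *Ror2*, 374 results kept their direction and their side of the threshold across alternatives and 95 did not. The count of the 10 genes called was 3 in the reported analysis, 5 with limma voom, 1 with the replicate block and 1 with the replicate block and a GC offset. Leaving out each library gave 1 to 4, with 1 without control library 1, 2 or 3. Over all genes, 3906 calls became 6341 with voom, 2013 with the replicate block and 1264 with the block and a GC offset. With control library 1, 2 or 3 left out there were 2680, 910 and 872 calls. With mutant library 1, 2 or 3 left out there were 2404, 3724 and 5001, so the count depended on which library was left out. With the replicate block, *Fgfr3* was at -1.11 (adjusted p = 0.012), *Fgfr2* at 0.38 (0.11) and *Dusp6* at -0.43 (0.086, all from edgeR). In this fit the 3 fold changes stayed close to those of the reported analysis (-1.10, 0.38 and -0.43), while *Fgfr2* and *Dusp6* lost their calls. Whether same-numbered libraries share more than a number is not stated. Besides the settings named in the report, *Fgfr2* lost its call with a GC offset (adjusted p = 0.062) and without control library 1 or 3 or mutant library 1 (0.067, 0.14 and 0.080). *Spry1* passed with DESeq2 (0.042) and voom (0.030), and *Etv5* with voom (0.040). *Fgfr4* turned to 0.14 without control library 2, 0.04 without mutant library 1 and 0.28 without mutant library 3 (-0.66 to 0.28 over the left-out libraries), and was not tested with a filter of at least 1 CPM in 3 libraries. The cause of these changes was not tested. In the cascade list 2 genes were called in the reported analysis, 5 with DESeq2 and 6 with voom. *Fgfr4* held 18 to 66 counts a library, with a biological coefficient of variation of 39.4%. What part depth had in its interval was not tested.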
